A study of Mus musculus with 9 samples.

Results

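The genes described here are chaperones and co-chaperones of the Hsp70, Hsp110, Hsp90, Hsp60/Hsp10, Hsp40 (Dnaj) and Cct families, measured in spinal motor neurons of mice with spinal muscular atrophy (SMA). A gene was a member when its array symbol began with Hspa, Hsph, Hsp90, Hspd, Hspe, Dnaj or Cct and went on with a number, or with a letter or letters and a number. Hspa5 and Hsp90b1 of the endoplasmic reticulum were left out by that rule, whereas J-proteins of that compartment were kept, and no measured value was used. It found 60 of the 12393 genes that at least 1 probe set named alone. There were 11 members of the Hsp70 and Hsp110 families, 1 Hsp90, the pair Hspd1 and Hspe1, 8 Cct genes, 4 Dnaja, 12 Dnajb and 22 Dnajc genes.

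The 3 groups held 3 mice each, with 1 mouse per array. One group was transgenic SMA mice that received a neural stem cell transplant at postnatal day 1. The next was transgenic SMA mice given the same surgery with vehicle, and the last was wild type mice given vehicle. All animals were killed at 13 days, and lumbar motor neurons were cut by laser from fixed, frozen cord, with about 100 cells per collection cap. The labels used here name no transgene, mutant allele, strain or sex. Every array therefore carries RNA of animals operated on as newborns, wild type included. The label NSC was read as neural stem cell from what is known of the study.

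Chaperones bind unfolded stretches of other proteins and let them go again, which helps new chains fold and keeps damaged ones from clumping. Hsp70 proteins do this in cycles of ATP hydrolysis that J-proteins, the Dnaj families, start, and that exchange factors such as the Hsp110 proteins reset. Hsp90 takes over partly folded kinases and receptors, while the Cct ring folds actin and tubulin and the Hspd1/Hspe1 cage works inside mitochondria. Motor neurons have long been described as slow to raise inducible Hsp70 under stress, and several J-proteins are linked to inherited neuropathies in humans.

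The values are MAS5 signals, linear intensities in arbitrary units scaled to one mean on every array. Median signals per array ran from 31.4 to 35.8, and log2 signals of different arrays correlated at 0.943 to 0.981 within groups and 0.946 to 0.97 between groups. Smn1, the gene behind the disease, read 1.3 to 5.1 on every array and could not serve as a check of genotype. Among motor neuron markers, neurofilament light chain read 559.1 to 1458, but Slc18a3, Slc5a7, Prph and Isl1 were too dim to test. Oligodendrocyte transcripts were abundant, with Mbp at 7831.6 to 13348.6, so the samples also held RNA of glia. SMA 1 and SMA 2 stood apart by skeletal muscle RNA, with Acta1 at 1288.7 and 1413.7 against at most 27.1 elsewhere. SMA 3 and wild type 3 stood apart by 18S ribosomal signal, at 2765 and 2940 against 839 to 1832, and by actin 3′/5′ ratios of 4.32 and 3.66 against 2.48 to 3.11. Transplanted SMA 1 had the highest summed signal of meningeal and fibroblast markers, at 8072 against 1548.6 to 4993.1 elsewhere. Transplanted SMA 2 had the highest sum of motor neuron markers, at 2668.2 against 844.8 to 1425.6. The part of this tissue content in the chaperone levels was not tested. Xist, a transcript of female cells, read 366.1 to 739.6 in transplanted SMA mice, 600.7, 879.5 and 47.6 in SMA mice, and 23.5 to 32.9 in wild type mice. By this transcript sex was largely confounded with group, and the labels do not give it. In samples of mixed cells, fewer cells of a type and less RNA per cell cannot be told apart.

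Of the 60 members, 47 were bright enough to test and 13 were not. The limit was the brighter 50% of all probe sets, each gene standing for itself by its probe set with the highest mean. Just outside it lay Dnajc18 and Dnajc21, with mean signals of 30.9 and 31.4, and just inside lay Dnajc28 and Hspa1b, with 36.7 and 41.5. The dim members were Cct6b, Dnajb3, Dnajb7, Dnajb8, Dnajb12, Dnajb13, Dnajc5b, Dnajc17, Dnajc18, Dnajc21, Hspa1a, Hspa1l and Hspa12b. Their signals ran from 0.8 to 41.8, and no level is claimed for them. Several others, among them Hsp90ab1, Hspa12a, Hspa13, Dnajb14, Dnajc6, Dnajc16 and Dnajc25, had no probe set that named them alone.

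Differences are given as the mean log2(signal + 16) of one group minus that of the other, so a value of 1 is a doubling of bright signals and dim genes are understated. All p-values come from limma's moderated test over 11313 probe sets, adjusted by Benjamini-Hochberg over all of them, with a threshold of 0.05. No member passed in any comparison, so the chaperone genes are described below by their levels and intervals. Between SMA and wild type mice the count was 0 of 47, where 0.0442% of all probe sets passed. Between transplanted and vehicle-treated SMA mice it was 0 of 47, and 0% of all probe sets passed. Between transplanted SMA and wild type mice it was again 0 of 47, with 0% of all probe sets. The lowest adjusted limma p of a member was 0.568, 0.933 and 0.754 in the same order of comparisons. The comparisons share arrays, so their values are set side by side and not counted as separate evidence.

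At an unadjusted limma p under 0.05, 2 of 47 members stood out in SMA minus wild type, which is 4.26% beside 6.04% of all probe sets. There were 0 in transplanted SMA minus SMA (4.77% of all probe sets) and 0 in transplanted SMA minus wild type (6.55%). Groups did not overlap for 7 of 47 members in SMA minus wild type, which is 14.9% beside 11.4% of all probe sets. Of these, 5 were lower in SMA mice (6.06% of all probe sets were) and 2 higher (5.31%). For transplanted SMA minus SMA it was 2 of 47, 4.26% beside 9.11%, with Dnajc1 lower (4.68% of all probe sets) and Dnajb2 higher (4.43%). For transplanted SMA minus wild type it was 3 of 47, 6.38% beside 14.1%, all lower in transplanted SMA mice (7.04% of all probe sets were, and 7.11% were higher). The share was near the background of the array in the first comparison and below it in the others.

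The intervals describe the chosen probe set of each gene on its own and are not adjusted for the number of genes. Other probe sets of a gene can lie outside them. For Hspa4 in SMA minus wild type the interval was -0.27 to 0.59, and another tested probe set gave -0.58. The 95% interval of a member's difference reached a median of 0.43 log2 units to either side (0.32 to 0.59). In SMA minus wild type and in transplanted SMA minus wild type, the intervals of all 47 tested members lay within 1 log2 unit of no difference. The transplant comparison with SMA mice had 46 such members, the exception being Hspa2. The differences themselves were under 0.5 for 46, 47 and 47 members, Dnajb2 in SMA minus wild type being the exception. Over the tested members the median difference was -0.003 in SMA minus wild type, beside 0.01 over all tested probe sets. It was -0.06 in transplanted SMA minus SMA (0.00 over all) and -0.05 in transplanted SMA minus wild type (-0.01 over all). The members also varied little between arrays, with a median SD over the 9 arrays of 0.222 log2 units beside 0.268 for all tested probe sets. Their median mean level was higher, at 7.56 beside 6.95.

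**Figure D1:**
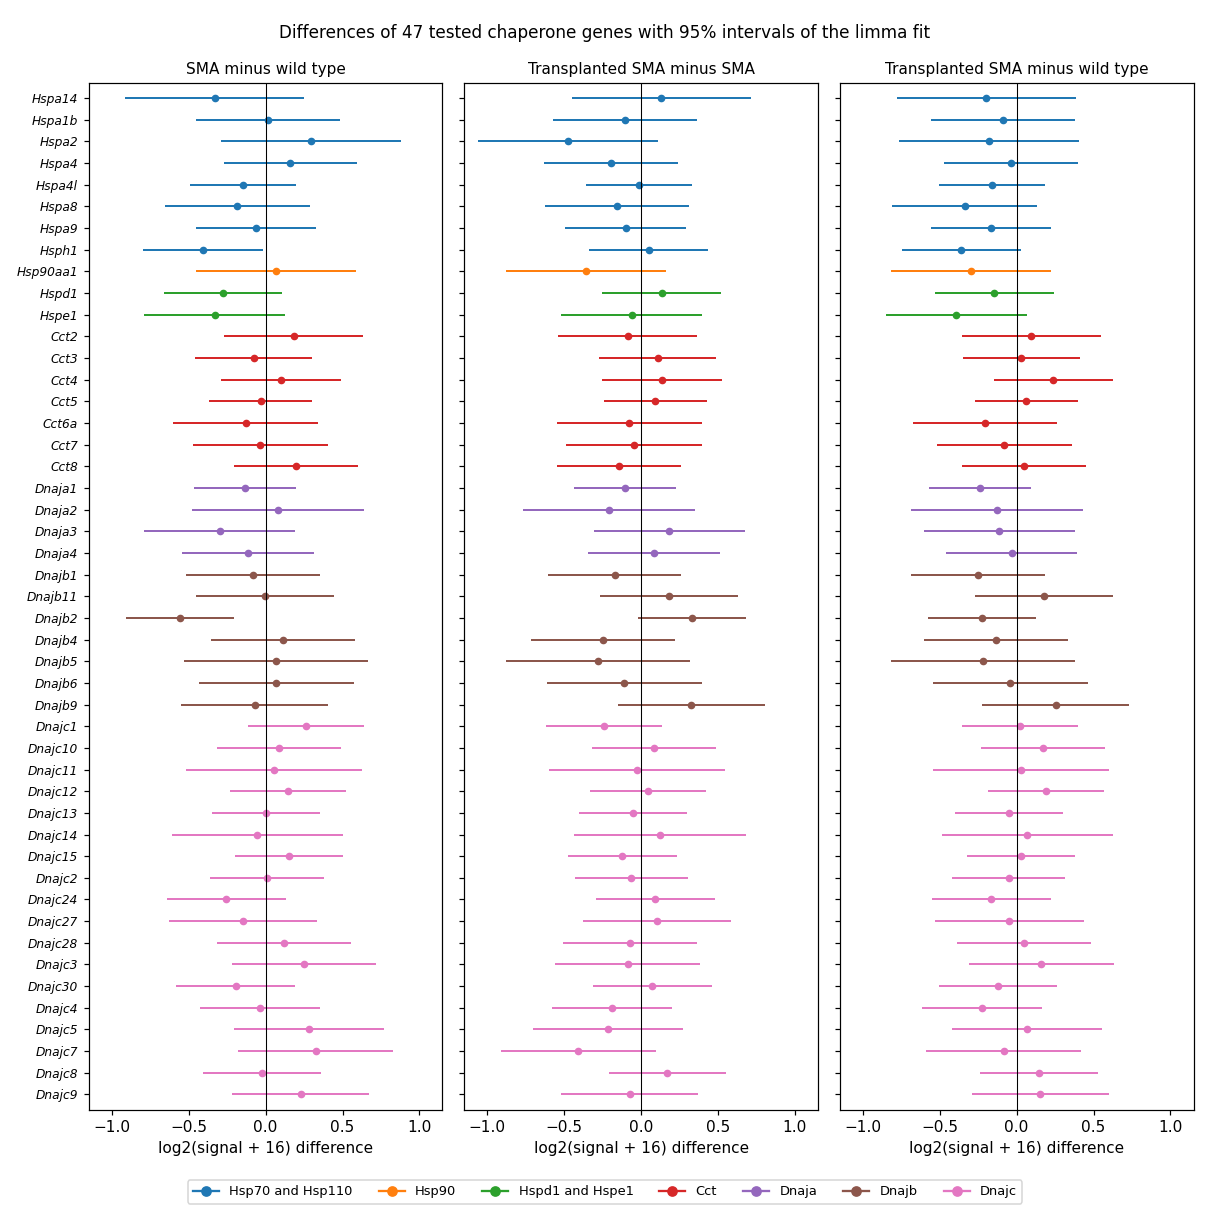
Differences of the 47 tested chaperone genes (points, log2(signal + 16) units) with 95% intervals of the limma fit (lines), coloured by family, in the 3 comparisons. Only the intervals of Dnajb2 and Hsph1 in SMA minus wild type leave out 0, and neither gene passed after adjustment.

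Dnajb2 had the lowest p of the family in SMA minus wild type. It encodes a J-protein abundant in neurons, and loss of the human gene causes a distal hereditary motor neuropathy. Signals were 288.7, 318.3 and 292.5 in transplanted SMA mice, 229.5, 215.9 and 261.1 in SMA mice, and 336.7, 336.9 and 385.5 in wild type mice. Every SMA array lay below every transplanted SMA array, and every transplanted SMA array lay below every wild type array. It was the only 1 of the 47 tested members whose 3 groups were all separate. The share of all probe sets with 3 separate groups was not counted, so this order is given as a description of the gene's values only. SMA minus wild type was -0.55 (SE 0.16, 95% interval -0.90 to -0.21), with an unadjusted limma p of 0.0047 and an adjusted p of 0.568. Transplanted SMA minus SMA was 0.33 (SE 0.16, -0.01 to 0.68, adjusted limma p 0.933), and transplanted SMA minus wild type was -0.22 (-0.57 to 0.12, adjusted limma p 0.871). Over 25 alternative settings the difference of SMA minus wild type ran from -0.63 to -0.40, with a lowest adjusted limma p of 0.223. The weakest value came with Xist as a covariate, and without SMA 1 and SMA 2 transplanted SMA minus SMA was 0.19. The gene has a single probe set here, so no second one could be read beside it.

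Heat shock factor binds runs of the unit NGAAN in alternating direction, and such runs are a known feature of stress-responsive chaperone promoters. RefSeq promoter windows on build GRCm38.p6 were found for 49 of the 60 members, in 65 windows. A pair of facing units (GAANNTTC or TTCNNGAA, which each read the same on both strands) was present in 16 of the 65 windows, or 24.6%, beside 15.1% of 32851 windows of all genes. A run of 3 alternating units (GAANNTTCNNGAA or TTCNNGAANNTTC, each the other's reverse complement, and each holding both pairs) was present in 6 of 65, or 9.23%, beside 0.603%. Those 6 windows belonged to Dnajb6, Hspd1, Hspe1 and Hsph1, and they do not hold 6 separate sites. The 2 windows of Dnajb6 overlap and hold the same run, as do the 2 of Hsph1, and Hspd1 and Hspe1 share a stretch. The shares are thus of windows and not of sites. The stretches below are shown because their genes head the results that follow, with matched units in capitals.

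Hspe1, chr1:55088047-55088088, plus strand: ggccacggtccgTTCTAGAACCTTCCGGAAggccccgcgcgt
Hspd1, chr1:55088047-55088088, minus strand: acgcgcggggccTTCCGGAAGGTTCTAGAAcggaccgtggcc
Hsph1, chr5:149636350-149636381, minus strand: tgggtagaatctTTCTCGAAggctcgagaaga
Hspa1b, chr17:34959323-34959354, minus strand: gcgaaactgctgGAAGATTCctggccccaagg
Dnaja1, chr4:40722332-40722363, plus strand: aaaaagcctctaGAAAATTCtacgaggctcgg
Dnajb2, chr1:75236323-75236422, plus strand: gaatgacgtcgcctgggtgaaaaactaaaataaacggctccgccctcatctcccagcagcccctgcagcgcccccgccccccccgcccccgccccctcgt

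The Hspe1 and Hspd1 lines are the same bases read on opposite strands, 60 to 101 bases before the start of Hspe1 and 115 to 156 before a start of Hspd1. From that start of Hspd1 the 2 genes face away from each other, with the stretch between them. From the other Hspd1 start the 2 genes overlap, and the stretch lies past that start. For Hsph1 only the pair before its start is shown, and the run of 3 units counted for its windows was not among the matches before the start. The Dnajb2 line gives the 100 bases before a start of that gene, in which these letters were not found. Neither of the 2 windows of Dnajb1 held a match, nor did the other 2 of 3 windows of Dnaja1 or the other window of Hspd1. A match is a match of letters and not a measured binding site, and none of these promoters was assayed.

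Differences of the Hsp70 and Hsp110 genes were small, and none passed the test. All 8 tested members had negative differences in transplanted SMA minus wild type, from -0.36 (Hsph1) to -0.04 (Hspa4), with a median of -0.17. With 1 array left out the sign turned for 3 of them, at 0.09 for Hspa2 without transplanted SMA 1, 0.10 for Hspa1b without transplanted SMA 3 and 0.05 for Hspa4 without wild type 3. In SMA minus wild type 5 of 8 were negative (median -0.11), and in transplanted SMA minus SMA 6 of 8 (median -0.10). Hspa8, the constitutive Hsp70 that also strips clathrin from vesicles, read 3088.5, 3929.4 and 1962.1 in transplanted SMA mice, 3075.0, 3330.6 and 3220.1 in SMA mice, and 3842.8, 3610.1 and 3484.7 in wild type mice. All SMA arrays lay below all wild type arrays, while the transplanted arrays spread over both. Its difference was -0.18 in SMA minus wild type (SE 0.21, adjusted limma p 1) and -0.34 in transplanted SMA minus wild type (SE 0.21, adjusted limma p 0.841). Without transplanted SMA 3 the difference of transplanted SMA and wild type mice was -0.06, and the gene's other tested probe sets gave 0.05 and -0.14 there.

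Hsph1, an Hsp110 exchange factor that also holds unfolded proteins, was the other member with an unadjusted p under 0.05. It read 245.1, 335.1 and 324.4 in transplanted SMA mice, 323.2, 272.1 and 272.2 in SMA mice, and 410.0, 364.2 and 390.3 in wild type mice. Both groups of SMA mice lay below all wild type arrays and overlapped each other. The difference of SMA and wild type mice was -0.41 (SE 0.17, 95% interval -0.79 to -0.03, unadjusted limma p 0.038, adjusted p 0.807). Transplanted SMA minus wild type was -0.36 (SE 0.17, adjusted limma p 0.754) and transplanted SMA minus SMA 0.05. A dimmer probe set of the gene, at a mean signal of 40.7, gave 0.01, 0.05 and 0.04 in the same order.

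The stress-inducible pair Hspa1a and Hspa1b was near the floor. Hspa1b read 49.4, 42.9 and 25.9 in transplanted SMA mice, 38.1, 51.4 and 38.9 in SMA mice, and 52.2, 36.1 and 38.6 in wild type mice, and the 3 groups overlapped. Its differences were 0.02 in SMA minus wild type and -0.10 in transplanted SMA minus SMA. Hspa1a, too dim to test, read 27.4, 30.5 and 17.5 in transplanted SMA mice, 12.5, 17.5 and 2.0 in SMA mice, and 18.3, 10.4 and 11.3 in wild type mice. The pair is nearly identical in sequence, so a probe set of one can take up signal of the other.

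Hspa2, an Hsp70 best known from sperm formation, had the largest difference of any tested member in transplanted SMA minus SMA. It read 74.0, 123.1 and 164.8 in transplanted SMA mice, 152.1, 184.7 and 163.8 in SMA mice, and 147.8, 161.6 and 96.7 in wild type mice. Transplanted SMA 1 was the lowest array and transplanted SMA 3 lay among the SMA arrays. The difference was -0.47 (SE 0.26, 95% interval -1.05 to 0.10, adjusted limma p 0.933), and without transplanted SMA 1 it was -0.20.

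The remaining tested members of the family overlapped between groups in every comparison. For Hspa4, an exchange factor related to Hsph1, the brighter probe set gave 0.16 in SMA minus wild type and -0.20 in transplanted SMA minus SMA. A second tested probe set of Hspa4 gave -0.58 and 0.63, so the direction of this gene was not settled. Hspa4l, its close relative, gave -0.15 in SMA minus wild type, and Hspa14, a partner of ribosome-bound J-protein, gave -0.33 with an SE of 0.26. Hspa9, the mitochondrial Hsp70, gave -0.06 in SMA minus wild type and -0.10 in transplanted SMA minus SMA.

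Hsp90aa1, the inducible cytosolic Hsp90, read 523.4, 911.0 and 861.4 in transplanted SMA mice, 942.4, 1086.5 and 862.5 in SMA mice, and 891.3, 749.8 and 1149.4 in wild type mice. Transplanted SMA 1 was low and the 3 groups overlapped. Its probe sets went apart: in SMA minus wild type they gave 0.07, -0.36 and -0.29, and in transplanted SMA minus SMA they gave -0.36, -0.07 and 0.00. All 3 were negative in transplanted SMA minus wild type, at -0.29, -0.43 and -0.29, with adjusted limma p of 0.884, 0.795 and 0.882. Without transplanted SMA 1 the first of these was -0.05.

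The mitochondrial chaperonin, built from Hspd1 (the Hsp60 barrel) and Hspe1 (its Hsp10 lid), read below wild type on all SMA arrays. Hspd1 read 451.5, 484.4 and 359.7 in transplanted SMA mice, 376.7, 451.2 and 347.0 in SMA mice, and 469.2, 477.5 and 480.6 in wild type mice. Hspe1 read 239.0, 363.0 and 248.3 in transplanted SMA mice, 231.6, 325.3 and 327.7 in SMA mice, and 382.0, 345.3 and 385.6 in wild type mice. For both genes the SMA arrays lay below all wild type arrays, and the transplanted arrays overlapped both other groups. It came to -0.28 in SMA minus wild type for Hspd1 (SE 0.17, adjusted limma p 0.908) and -0.33 for Hspe1 (SE 0.21, adjusted limma p 0.913). Transplanted SMA minus wild type was -0.15 for Hspd1 and -0.39 for Hspe1, and transplanted SMA minus SMA was 0.13 and -0.06. A dimmer probe set of Hspe1 gave -0.12 in SMA minus wild type and 0.09 in transplanted SMA minus wild type.

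**Figure D2:**
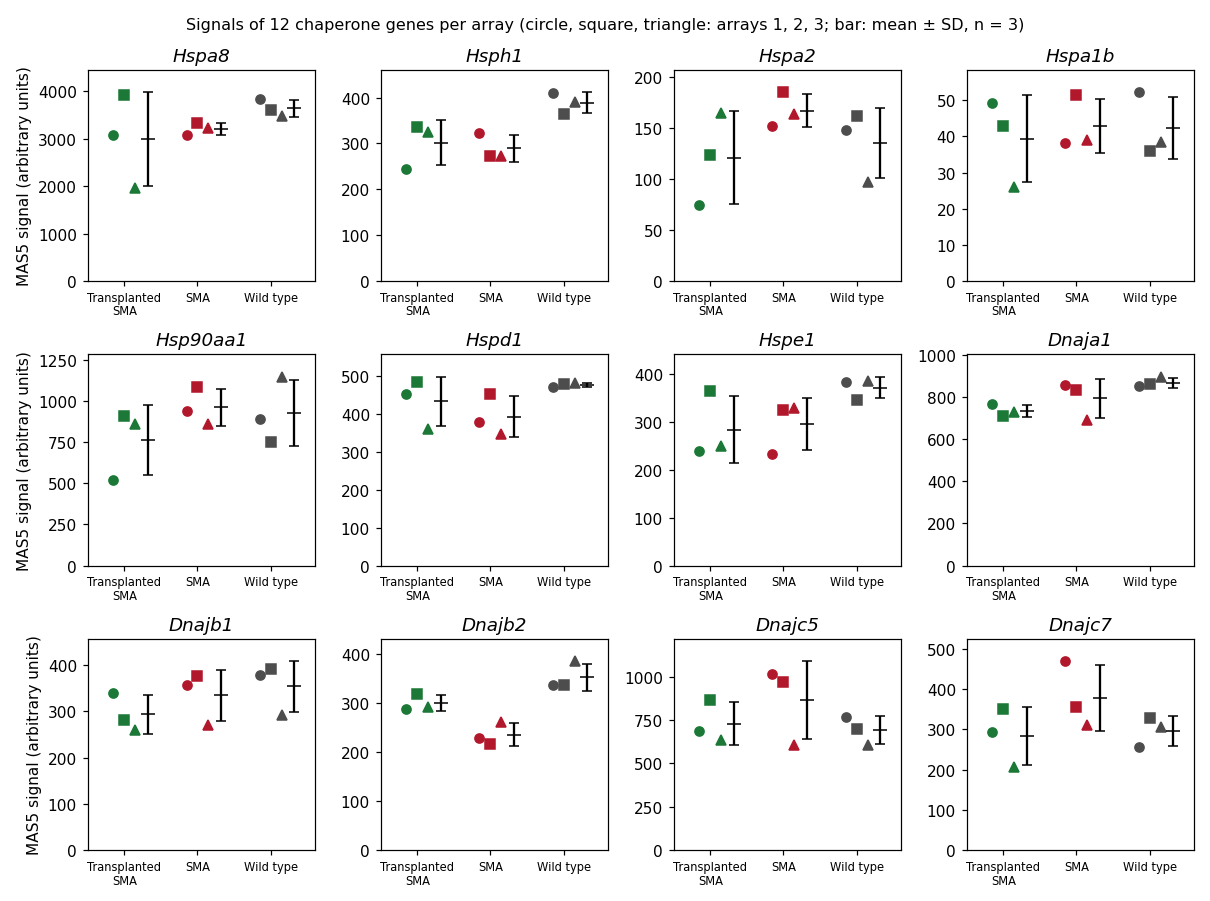
MAS5 signals (arbitrary units, axes from 0) of 12 chaperone genes on each array, with transplanted SMA, SMA and wild type from left to right, and mean ± SD (n = 3 mice) beside each group. Dnajb2 separates into 3 levels, Hspa8, Hsph1, Hspd1 and Hspe1 have all 3 SMA arrays below all 3 wild type arrays, and the other panels overlap in that comparison. The share of all probe sets with 3 separate groups was not counted.

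Read as a list, the 9 tested genes of 11 known to be raised by heat (Hspa1b, Hspa8, Hspa4l, Hsph1, Hsp90aa1, Hspd1, Hspe1, Dnaja1 and Dnajb1) gave mostly negative differences from wild type. In SMA minus wild type 7 of 9 were negative with a median of -0.15. Another tested probe set was above 0 there for Hsph1 (0.01), Dnaja1 (0.03) and Dnajb1 (0.05). It was below 0 for Hspa1b (-0.15) and Hsp90aa1 (-0.36), whose chosen probe sets were above 0. Groups did not overlap for 4 of the 9, all lower in SMA mice, where 6.06% of all probe sets were lower without overlap. Transplanted SMA minus wild type was negative for 9 of 9 with a median of -0.25, and 2 were lower without overlap (7.04% of all probe sets were). That median was -0.15 with the mean of all probe sets of each gene, and 4 of the 9 had another tested probe set above 0 there, at 0.05 (Hspa8), 0.05 (Hsph1), 0.09 (Hspe1) and 0.02 (Dnaja1). None of the 9 passed the limma test in any comparison. Of the listed genes left out, Hsp90ab1 had no probe set of its own and Hspa1a was too dim to test. Hspa1a read a mean of 25.1 in transplanted SMA, 10.7 in SMA and 13.3 in wild type mice. Hspb1, a small heat shock protein not on the list, was above wild type, at 1.87 in SMA and 0.85 in transplanted SMA mice. The count of negative genes thus depends on which genes are listed and tested. The median deviation of the list from its own mean over 9 arrays was -0.06, 0.05 and -0.25 on the transplanted SMA arrays, -0.06, 0.07 and -0.06 on the SMA arrays, and 0.22, 0.15 and 0.16 on the wild type arrays. All 3 wild type arrays were above all 6 others by this measure. The median over all tested probe sets lay between -0.02 and 0.03 on every array. On scaled arrays a median of so many lies near 0, so it is no background for a list of 9. Other small sets reached 0.23 (7 Cct genes, SMA 2) and -0.31 (4 Dnaja genes, SMA 3). How often sets of this size separate the groups was not counted. Transplanted SMA minus SMA had a median of -0.10, which was 0.02 without transplanted SMA 3 and 0.00 without SMA 1 and SMA 2. Transcripts of red blood cells were also lower, with all 5 that had a probe set below the wild type mean in both groups of SMA mice. Their summed signal was 1917 to 2862 in transplanted SMA mice, 2283 to 2734 in SMA mice and 4116 to 5976 in wild type mice, with only Hba-a1 near 0. Xist, which marks females, was lower in all wild type mice than in all other mice, so sex was largely confounded with group. The part of red blood cell RNA or of sex in the level of the heat-inducible genes was not tested. With Xist as a covariate the median was -0.35 in SMA minus wild type and -0.48 in transplanted SMA minus wild type. Within groups, however, Xist differed most between SMA 3 and the other SMA arrays. Those arrays also differed in muscle RNA, ribosomal signal and actin ratio, so this fit cannot separate Xist from these or from group.

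**Figure D3:**
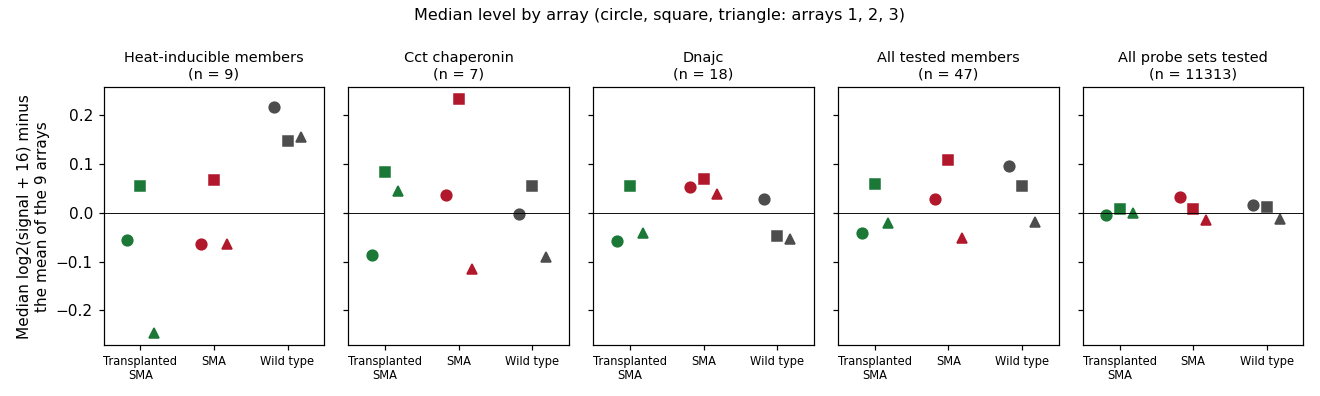
Median log2(signal + 16) of 9 heat-inducible members, 7 Cct genes, 18 Dnajc genes, all 47 tested members and all 11313 tested probe sets on each array, relative to each gene's mean over 9 arrays. The heat-inducible genes sit at 0.15 to 0.22 on the 3 wild type arrays and at 0.07 or less on the other 6. The Dnajc genes sit at 0.04 to 0.07 on the SMA arrays and at -0.05 to 0.03 on the wild type arrays, and the other panels overlap between groups.

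The Cct ring folds newly made actin and tubulin. By their probe sets of highest mean, all 7 tested subunits overlapped between groups in every comparison, and no difference was larger than 0.24 in size. Medians were -0.03 in SMA minus wild type, -0.05 in transplanted SMA minus SMA and 0.05 in transplanted SMA minus wild type. Cct4 had the largest difference, 0.24 in transplanted SMA minus wild type (SE 0.17, 95% interval -0.14 to 0.62, adjusted limma p 0.873). It read 668.4, 802.4 and 871.6 in transplanted SMA mice, 605.5, 841.7 and 685.3 in SMA mice, and 645.2, 700.0 and 622.9 in wild type mice. Transplanted SMA 1 lay between the wild type arrays. The 5 tested probe sets of Cct4 did not agree, with -0.35 to 0.26 in transplanted SMA minus wild type and -0.44 to 0.23 in transplanted SMA minus SMA. Without probe sets that can take up related transcripts, Cct4 gave -0.11 in transplanted SMA minus wild type. For Cct3 the 5 tested probe sets gave -0.11 to 0.37 in transplanted SMA minus SMA.

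Cct5 read 960.0, 966.4 and 956.4 in transplanted SMA mice, 951.1, 992.3 and 773.1 in SMA mice, and 925.7, 969.5 and 868.2 in wild type mice. Apart from SMA 3, all of its arrays were within a narrow band. The other subunits gave 0.18 (Cct2), -0.08 (Cct3), -0.13 (Cct6a), -0.03 (Cct7) and 0.20 (Cct8) in SMA minus wild type. SMA 3 was the lowest array for Cct3, Cct5 and Cct7. Tcp1, which encodes the ring's remaining subunit and falls outside the symbol rule, gave 0.25 in SMA minus wild type and -0.28 in transplanted SMA minus SMA.

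Among J-proteins, the Dnaja class serves Hspa8 in the cytosol and Hspa9 in mitochondria. Dnaja1 read 766.4, 711.1 and 731.0 in transplanted SMA mice, 857.1, 837.6 and 690.5 in SMA mice, and 852.7, 861.6 and 897.5 in wild type mice. All transplanted arrays lay below all wild type arrays, and the SMA arrays overlapped both. Transplanted SMA minus wild type was -0.24 (SE 0.15, 95% interval -0.56 to 0.09, adjusted limma p 0.841), and a second probe set of nearly the same signal gave 0.02. Dnaja3, a mitochondrial J-protein, gave -0.30 in SMA minus wild type (SE 0.22), with SMA 3 lowest at 44.3, and without SMA 3 the value was -0.06. Dnaja2 and Dnaja4 gave 0.08 and -0.12 in that comparison.

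In the Dnajb class, Dnajb2 aside, no group was separate from another in any comparison. Dnajb1, the heat-induced partner of Hsp70, read 340.6, 281.4 and 259.4 in transplanted SMA mice, 356.9, 375.7 and 270.6 in SMA mice, and 378.8, 391.0 and 291.7 in wild type mice. Replicate 3 was the lowest array of each group, and transplanted SMA minus wild type was -0.25 (SE 0.19, adjusted limma p 0.882). Dnajb6, which holds polyglutamine proteins soluble, gave 0.07 in SMA minus wild type and -0.11 in transplanted SMA minus SMA. Dnajb4 and Dnajb5, relatives of Dnajb1, gave -0.25 and -0.28 in transplanted SMA minus SMA. Without SMA 1 and SMA 2 the value of Dnajb4 was 0.09, and without transplanted SMA 1 that of Dnajb5 was -0.01. Dnajb5 had one of the widest spreads of the tested members, at 21.5 to 71.1 over the 9 arrays.

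J-proteins of the endoplasmic reticulum gave small positive differences in transplanted SMA minus wild type. All 5 tested of the list (Dnajb9, Dnajb11, Dnajc1, Dnajc3 and Dnajc10) were positive there, with a median of 0.17 and a range of 0.02 to 0.25, and none passed. The sign turned for Dnajc1 without wild type 3 (-0.08), for Dnajc3 without transplanted SMA 3 (-0.04) and for Dnajb11 with Xist as a covariate (-0.26), and another probe set of Dnajc10 gave -0.14. Wild type 3, with the high 18S signal and actin 3′/5′ ratio, had the lowest median deviation of the list, at -0.28, and the part of RNA quality in it was not tested. Dnajb9, which binds Hspa5 and is induced when proteins misfold in that compartment, read 224.1, 250.3 and 306.5 in transplanted SMA mice, 149.8, 226.1 and 245.0 in SMA mice, and 241.3, 182.3 and 222.1 in wild type mice. The groups overlapped in each comparison. Transplanted SMA minus SMA was 0.33 (SE 0.21, 95% interval -0.15 to 0.80, adjusted limma p 0.933), and without SMA 1 and SMA 2 it was 0.07. Dnajb11 gave 0.18 in transplanted SMA minus SMA, and Dnajc3, an inhibitor of eIF2α kinases, gave 0.25 in SMA minus wild type.

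Dnajc1, a membrane J-protein of the same compartment, read 47.4, 35.8 and 45.4 in transplanted SMA mice, 57.7, 51.2 and 51.6 in SMA mice, and 47.2, 44.6 and 34.5 in wild type mice. All SMA arrays lay above the arrays of both other groups. SMA minus wild type was 0.26 (SE 0.17, adjusted limma p 0.924) and transplanted SMA minus SMA was -0.24 (SE 0.17, adjusted limma p 0.933). These are dim signals, on which 16 added units weigh heavily.

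The Dnajc class is the most mixed in role, and 12 of its 18 tested members had positive differences in SMA minus wild type, with a median of 0.07. In transplanted SMA minus SMA 11 of 18 were negative (median -0.06), and in transplanted SMA minus wild type 11 of 18 were positive (median 0.03). Groups did not overlap for Dnajc1 and Dnajc12 in SMA minus wild type, both higher in SMA mice, which is 11.1% of the 18 beside 11.4% of all probe sets in either direction. Dnajc12, chosen after its values were seen, gave 0.15 there. Dnajc7, a J-protein that docks on both Hsp70 and Hsp90, read 293.5, 349.9 and 206.0 in transplanted SMA mice, 469.1, 355.3 and 310.5 in SMA mice, and 255.1, 328.0 and 305.0 in wild type mice. SMA 1 was the highest array and SMA 3 lay among the wild type arrays. SMA minus wild type was 0.32 (SE 0.23, adjusted limma p 0.944) and transplanted SMA minus SMA was -0.41 (SE 0.23, 95% interval -0.90 to 0.09, adjusted limma p 0.933). Without SMA 1 and SMA 2 the second of these was -0.16.

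Dnajc5 encodes cysteine string protein, which guards SNARE proteins on synaptic vesicles and whose loss in mice leads to nerve terminal degeneration. It read 687.0, 866.9 and 631.9 in transplanted SMA mice, 1013.5, 970.5 and 605.6 in SMA mice, and 767.8, 699.8 and 606.3 in wild type mice. SMA 1 and SMA 2, the arrays with muscle RNA, were the highest, and SMA 3 was the lowest of all 9. The difference was 0.28 in SMA minus wild type (SE 0.22, adjusted limma p 0.963), and the gene's 4 tested probe sets gave 0.21 to 0.32. The value was 0.52 without SMA 3 and -0.28 with Xist as a covariate, and transplanted SMA minus SMA was -0.22. The 10 listed muscle transcripts summed to 134 to 202.2 in transplanted SMA mice, 141.8 to 3031.5 in SMA mice and 111.3 to 283 in wild type mice, with 8 of 10 above the wild type mean in SMA mice. Without SMA 1 and SMA 2, transplanted SMA minus SMA for Dnajc5 was 0.25.

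Other Dnajc members had smaller differences. Dnajc24, needed for the diphthamide of elongation factor 2, gave -0.26 in SMA minus wild type (SE 0.17, adjusted limma p 0.938). Dnajc4 gave -0.19 in transplanted SMA minus SMA and -0.23 in transplanted SMA minus wild type. Dnajc8, a nuclear J-protein, gave -0.02 in SMA minus wild type, 0.17 in transplanted SMA minus SMA and 0.15 in transplanted SMA minus wild type.

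**Figure D4:**
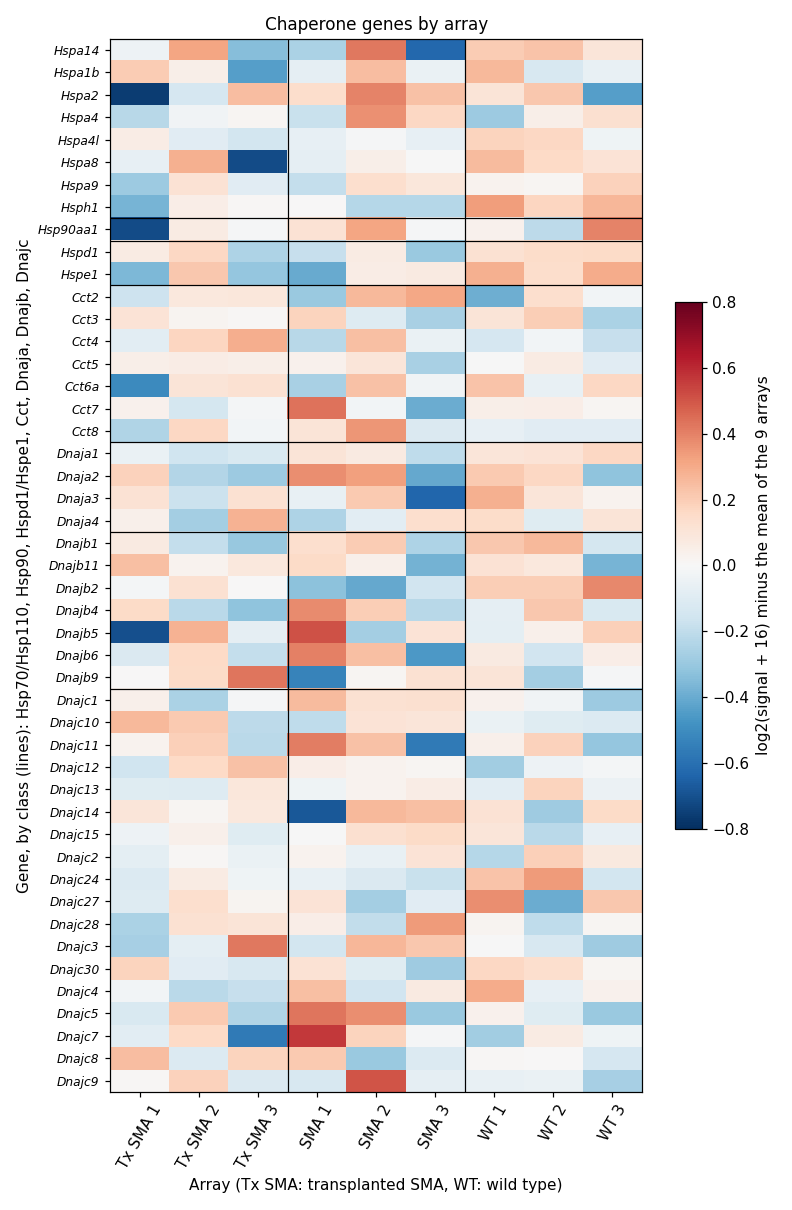
Log2(signal + 16) of the 47 tested chaperone genes on each array relative to the gene's mean over 9 arrays (red above, blue below), with genes by family from top to bottom and transplanted SMA, SMA and wild type arrays from left to right. SMA 3 is the lowest array for 14 of the 47 genes and SMA 1 the highest for 9, and the same shares over all tested probe sets were not counted.

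SMA 3 was the lowest of the 9 arrays for 14 of the 47 tested members, and transplanted SMA 1 and 3 followed with 8 and 7. SMA 1 and SMA 2 were the highest for 9 and 8. The shares of all tested probe sets that were lowest or highest on each array were not counted. Over all 11313, SMA 3 had the fewest probe sets above their own mean over the 9 arrays (5418) and SMA 1 the most (6103). The counts are therefore not read as a trait of the chaperones. SMA 3 shares its high 18S signal and actin 3′/5′ ratio with wild type 3, which was the lowest array for 3 members. The part of RNA quality in these levels was not tested. Probe sets of one gene also differed: of 26 members with at least 2 tested probe sets, all pointed the same way for 12 in SMA minus wild type, 15 in transplanted SMA minus SMA and 14 in transplanted SMA minus wild type.

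Co-chaperones, which steer Hsp70 and Hsp90, were read from a separate list of 33 genes, of which 28 were tested and 0 passed in any comparison. In SMA minus wild type 19 of 28 were negative with a median of -0.11, and 2 had an unadjusted limma p under 0.05, which is 7.14% beside 6.04% of all probe sets. Fkbp5, an Hsp90 partner induced by glucocorticoids, read 117.5, 87.9 and 144.7 in transplanted SMA mice, 248.4, 113.9 and 121.7 in SMA mice, and 69.7, 59.9 and 66.5 in wild type mice. All arrays of both SMA groups lay above all wild type arrays. SMA minus wild type was 1.05 (SE 0.27, adjusted limma p 0.534) and transplanted SMA minus wild type 0.68 (adjusted limma p 0.711).

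St13, which stabilises Hsp70 with its client, gave -0.48 in SMA minus wild type (SE 0.20, adjusted limma p 0.807). Chordc1, an Hsp90 partner, read 101.0, 117.8 and 100.2 in transplanted SMA mice, 99.1, 132.4 and 134.2 in SMA mice, and 160.5, 150.5 and 167.6 in wild type mice. Both groups of SMA mice lay below all wild type arrays, with -0.36 in SMA minus wild type and -0.52 in transplanted SMA minus wild type (SE 0.17, adjusted limma p 0.677). Ahsa1, which speeds the ATPase of Hsp90, gave -0.32 in transplanted SMA minus wild type. Fkbp8 and Bag5 gave 0.51 and 0.43 in transplanted SMA minus SMA, with SEs of 0.25 and 0.22.

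Prefoldin hands unfolded actin and tubulin to the Cct ring, and 0 of 8 tested genes of its list passed in any comparison. Pfdn5 read 127.9, 112.3 and 80.7 in transplanted SMA mice, 159.5, 195.7 and 114.9 in SMA mice, and 150.2, 134.6 and 137.5 in wild type mice. Transplanted SMA minus SMA was -0.48 (SE 0.22, adjusted limma p 0.933). Of the heat shock factor list only Hsbp1, which binds the factor's trimer, could be tested, and it gave -0.04 in SMA minus wild type.

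Hspb1, a small heat shock protein outside these families, passed in SMA minus wild type, where 5 of 11313 probe sets did. It was picked with earlier results of these data known, so its call is no check of the arrays. It read 171.9, 104.9 and 147.3 in transplanted SMA mice, 368.5, 288.5 and 249.2 in SMA mice, and 65.1, 59.4 and 88.6 in wild type mice. The difference was 1.87 in SMA minus wild type, with an adjusted limma p of 0.0135. In transplanted SMA minus SMA it was -1.02, with an adjusted limma p of 0.933. A call at the first size does not show that differences as small as those of the members could be called. The 9 tested heat-inducible members had differences of -0.41 to 0.07 in SMA minus wild type. What sets the level of Hspb1 or of these members was not tested.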

How the data were processed

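Per the labels' protocols, motor neuron RNA of 9 mice in 3 groups went through 2 rounds of amplification onto Affymetrix arrays, 1 animal each. The authors deposited MAS5 signals, an intensity on a linear scale, per the submitters' processing notes, which name no MAS5 version. The authors' scaling (trimmed mean of 100 on every array) was kept. Of 22690 probe sets, 64 controls were left out, and 20380 named 1 symbol in the platform annotation, 691 several and 1555 none. A gene stood by its probe set with the highest mean log2(signal + 16) among those naming it alone; 2 probe sets naming a J-protein and its pseudogene together were not used.

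The brighter 50% of probe sets (11313) were fitted with limma 3.58.1 in R 4.3.3 (lmFit, eBayes with trend), with a mean per group over all 9 arrays, 4.93 prior and 6 residual degrees of freedom. Tests were two-sided, with Benjamini-Hochberg adjustment over all probe sets of a comparison. The fit was tested on simulated data. With 3 arrays per group, their number limits the precision.

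Members, gene lists and alternatives were chosen with earlier results of these data known. Genes named were a fixed set of chaperones, per comparison the 8 members with the lowest p, the 5 with the largest SD, each family's members of highest and lowest mean signal, and per list and comparison the 3 genes with the lowest p. Smn1 and the marker genes were added as checks, and Hspb1 to be set beside the members. Alternatives were normalisation, pseudocounts of 1 and 64, filters, eBayes settings, array weights, the sample number as a block, Xist or muscle RNA as a covariate, arrays left out, and other choices of probe set. Promoter sequences are RefSeq's, on GRCm38.p6.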

Additional observations from a re-analysis of the deposited data

How the results depend on the processing

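The count of members past the limma threshold was 0 in each of the 3 comparisons under all 26 alternatives, including every fit without one array and the replicate block. The median difference over the tested members moved by more than the spread between arrays in 6 cases. In SMA minus wild type it was -0.13 with Xist as a covariate and -0.085 without SMA 1 and SMA 2. In transplanted SMA minus SMA it was 0.00189 with muscle RNA as a covariate and 0.071 without SMA 1 and SMA 2. In transplanted SMA minus wild type it was -0.13 with centring on array medians, which moved the median of all tested probe sets to -0.09, and -0.22 with Xist as a covariate. The cause was not tested. Leaving out one array at a time gave medians of -0.05 to 0.04, -0.088 to -0.0014 and -0.09 to -0.02 in the same order. The labels do not say that a sample number marks a shared litter or day. Deviations from group means correlated at -0.083 to 0.453 between same-numbered arrays of different groups, over 0.1 for 6 of 9 pairs, including all 3 pairs numbered 3, beside 4 of 18 pairs of different numbers. Not every array correlated best with its own number, since SMA 1 correlated best with wild type 2. Mean signals of the hybridisation controls were highest on the arrays numbered 3, at 623 (transplanted SMA), 700 (SMA) and 593 (wild type) against 376 to 522 elsewhere. The unpaired fit was kept because the labels state no pairing, though a shared effect of the number need not show in every pair. With the sample number as a replicate block the medians were -0.003, -0.06 and -0.05, and the block changed no call. The lowest adjusted limma p of any named member under any alternative was 0.223 (Dnajb2, SMA minus wild type). No called value changed sign, since there was none, but 63 of 108 differences of named members took the opposite sign under at least 1 alternative. The wide intervals around small differences, the dim probe sets and the disagreement between probe sets of one gene limit what these 9 arrays can show.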
